A study of Mus musculus and Rattus norvegicus with 28 samples.

Results

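The genes described here are the 3 D cyclins (Ccnd1, Ccnd2, Ccnd3), the Cip/Kip inhibitors p21 (Cdkn1a) and p27 (Cdkn1b), the 4 genes of the INK4 group (Cdkn2a, Cdkn2b, Cdkn2c, Cdkn2d) and the homeobox gene Meis1. They were chosen by gene symbol, and all 10 were found among 55450 mouse genes, while 9 were found among 32623 rat genes, where no row carried the symbol Cdkn2d. All 10 mouse and all 9 rat genes passed the filter on low values. Of 28 libraries in the series, 22 were used, and 6 HiChIP libraries were not analysed here. Mouse cardiomyocytes were isolated from left ventricles of C57BL/6 mice at embryonic day 18.5 (E18.5) and at postnatal days 1, 3 and 7 (P1, P3 and P7), with 2 RNA-seq and 2 ATAC-seq libraries per time point and no treatment. Rat cardiomyocytes came from ventricles of Sprague Dawley pups at P1, were plated, and received 1 day later either DMSO as vehicle or 100 nM trichostatin A (TSA), an inhibitor of histone deacetylases, with 3 RNA-seq libraries each. According to the study's methods the digested cells were pre-plated so that attaching non-muscle cells could be removed. The study calls its replicates biological, while the labels number the libraries without saying which animals or cultures a number marks, and the p-values measure the spread between these libraries.

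D cyclins bind and activate the kinases Cdk4 and Cdk6, which phosphorylate the retinoblastoma protein and so release E2F factors that drive the entry into S phase. INK4 proteins bind Cdk4 and Cdk6 directly and keep them from the D cyclins, whereas p21 and p27 act on complexes of cyclins with kinases, above all those of Cdk2. Cdkn2a is unusual in having 2 first exons that feed a common exon in different reading frames, giving the INK4 protein p16 from the downstream start and Arf, which stabilises p53, from the upstream start. Cardiomyocytes of mice and rats divide before birth and leave the cell cycle in the days after it, and Meis1 is a TALE homeodomain factor known as a regulator of that exit.

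The labelled cell type was checked first, since marker genes moved strongly with age. The study reported high purity from staining of cardiac troponin T, also for P7 cells. It also found the promoters of Pecam1 and Dcn not accessible in its cardiomyocytes. Staining and accessibility are other measures than the RNA sums given here. The summed level of 16 cardiomyocyte genes was 31350 and 40220 FPKM (fragments per kilobase of transcript, scaled to library size) in the E18.5 libraries, 13940 and 22410 in those of P1, 9368 and 8066 in those of P3, and 2265 and 935 by P7. All 16 were called lower at P7 than at E18.5, and none was listed at 0. The sum over 12 fibroblast genes ran the other way, from 492 and 491 FPKM at E18.5 to 3331 and 4125 at P7, and all 12 were called higher. Red cell genes, 7 in number and led by the globins, summed to 29050 and 35400 FPKM at E18.5 and to at most 41.1 FPKM in every later library. The sum over 12 endothelial genes lay between 338 and 776 FPKM across the libraries. For 10 smooth muscle and pericyte genes it was 899 and 1085 FPKM at E18.5 and 1712 and 1899 at P7. For 10 macrophage genes it was 63.6 and 57.8 FPKM at E18.5 and 121.9 to 199.6 in the later libraries. Every mouse difference below was measured across this change in markers. Age and cell make-up cannot be told apart in these libraries, and in such bulk samples fewer cells of a type and less RNA per cell cannot be told apart either. Depth was 29.3 to 37.5 M aligned reads per mouse library and 28.2 to 38.5 M per rat library.

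The promoter stretches below are shown because they belong to the inhibitor genes with the clearest differences between E18.5 and P1. RefSeq promoter entries existed for 8 of the 10 genes, and those of Cdkn2a, Cdkn2b and Cdkn1a are printed 5′ to 3′ in build GRCm38.p6. Bases that lie inside an annotated exon of the gene were left out before the search, which covered at most 250 bases upstream of each start. Only 52 bases remained for Cdkn2d, and for Cdkn2c no bases remained. Capitals mark matches, on either strand, to the motifs searched.
Cdkn2a upstream start, chr4:89294654-89294869, minus strand: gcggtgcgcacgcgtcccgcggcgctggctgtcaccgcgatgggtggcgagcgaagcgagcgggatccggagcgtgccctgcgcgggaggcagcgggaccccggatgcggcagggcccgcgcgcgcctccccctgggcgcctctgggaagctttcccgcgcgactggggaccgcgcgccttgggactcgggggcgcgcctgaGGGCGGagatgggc
Cdkn2a downstream start, chr4:89282193-89282442, minus strand: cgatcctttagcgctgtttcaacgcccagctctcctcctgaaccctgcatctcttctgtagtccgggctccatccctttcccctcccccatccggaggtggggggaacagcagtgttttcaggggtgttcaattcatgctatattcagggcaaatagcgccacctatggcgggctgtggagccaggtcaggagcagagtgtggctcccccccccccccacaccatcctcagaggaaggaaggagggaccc
Cdkn2b, chr4:89311040-89311282, minus strand: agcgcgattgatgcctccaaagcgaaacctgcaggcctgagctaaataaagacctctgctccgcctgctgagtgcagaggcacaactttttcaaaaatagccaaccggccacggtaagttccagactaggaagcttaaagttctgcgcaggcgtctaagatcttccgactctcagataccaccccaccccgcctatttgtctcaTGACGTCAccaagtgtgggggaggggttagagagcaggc
Cdkn1a, chr17:29093519-29093768, plus strand: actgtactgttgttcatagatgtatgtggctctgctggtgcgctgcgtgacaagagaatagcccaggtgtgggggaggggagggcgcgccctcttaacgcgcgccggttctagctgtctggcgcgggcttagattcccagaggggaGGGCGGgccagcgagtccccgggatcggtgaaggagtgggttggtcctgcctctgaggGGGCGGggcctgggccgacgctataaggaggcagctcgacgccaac
The motifs were the GC box (GGGCGG, found in 32.7% of 32851 mouse promoters), the CCAAT box (CCAAT, 33.8%), the TATA box (TATAAA, 12.4%), E2F (TTTCGCG or TTTGGCG, 1.93%), AP1 (TGACTCA or TGAGTCA, 4.46%) and CRE (TGACGTC, 2.78%). The stretch before the upstream Cdkn2a start held 1 GC box and 35 CpG in 216 bases at 78.7% G and C. The stretch before the downstream start of the same gene held 7 CpG in 250 bases at 60% G and C, and no match. Cdkn2b held a CRE match on each strand, both from the same palindrome TGACGTCA shown in capitals, and Cdkn1a held 2 GC boxes. No member promoter searched held an E2F, AP1 or TATA match, which says only that these letters are not in the windows read. Other spellings of these sites, which the printed stretches may hold, were not searched. The shares over all promoters were counted over the full 250 bases, so they are not matched to the shorter member windows. A match describes the sequence and was not tested as a binding site.

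Across the mouse time points the 10 genes took different courses. Ccnd1, Cdkn2a and Cdkn2b rose between E18.5 and P1 and were called higher than E18.5 at each later age. Cdkn1a fell at P1 and P3, and Cdkn2d was called lower at P3 and P7. A gene was called when limma's moderated test on log2(FPKM + 1), adjusted by Benjamini-Hochberg over all 13979 genes tested, gave an adjusted p under 0.05 and the log2 difference was above 1 in size. By that rule 4 of 10 members were called at P1 against E18.5 (all genes: 16.2%), 5 of 10 at P3 (all genes: 21.9%) and 4 of 10 at P7 (all genes: 27.7%). By direction, 3 members were higher and 1 lower at P1, against 10.1% and 6.06% of all genes, 3 higher and 2 lower at P3, against 13% and 8.88%, and 3 higher and 1 lower at P7, against 15.4% and 12.3%. The median log2 difference over the 10 members was -0.06 for P1, -0.03 for P3 and -0.23 for P7, beside 0.15, 0.16 and 0.14 over all genes tested. The libraries of the groups did not overlap for 7 members at P1 (all genes: 69.6%), 7 at P3 (74.8%) and 9 at P7 (78.3%). These comparisons share the E18.5 libraries, so their counts are not independent of each other.

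**Figure D1:**
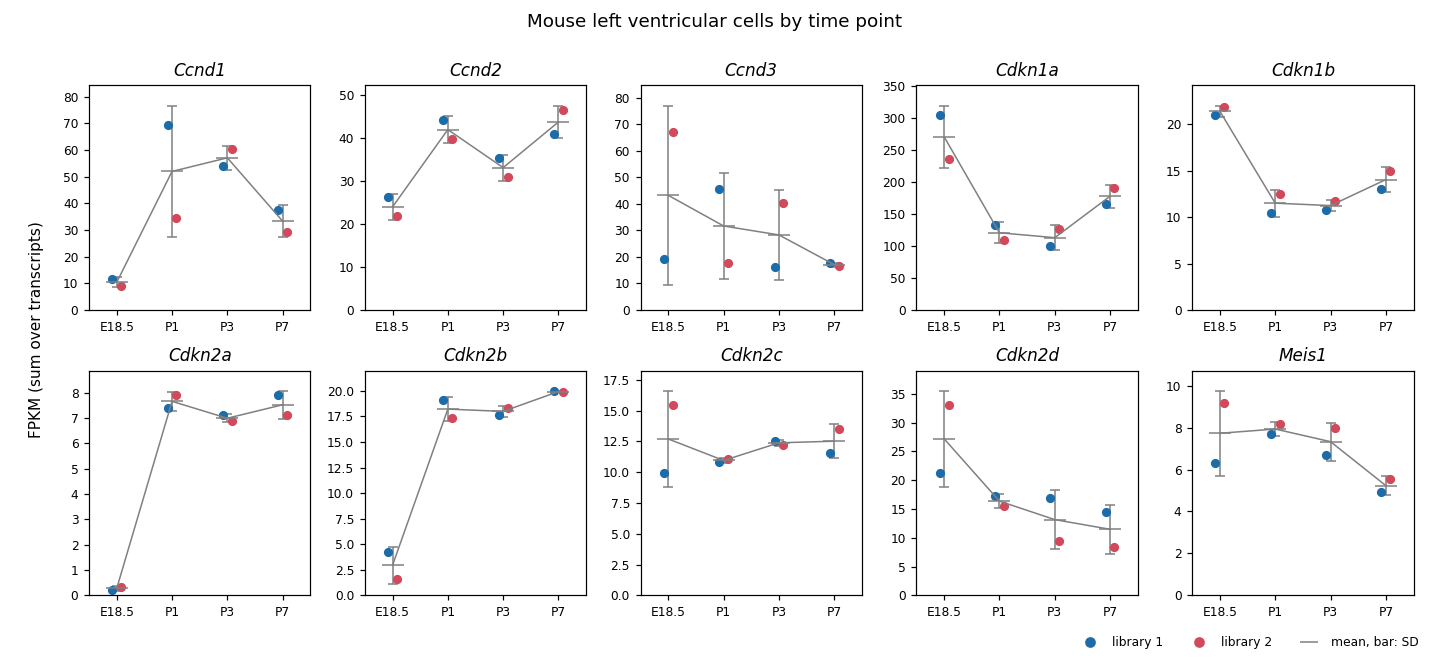
FPKM (y axis, linear, from 0) of each of the 10 genes by time point (x axis) in mouse left ventricular cells, with 1 point per library, a grey bar for the mean and whiskers for the SD (n = 2). Cdkn2a lies at 0.215 and 0.336 FPKM at E18.5 and between 6.88 and 7.92 in all later libraries, while Ccnd3 spreads from 16.3 to 67.1 with the libraries of one age far apart at E18.5, P1 and P3 and close together at P7.

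**Figure D2:**
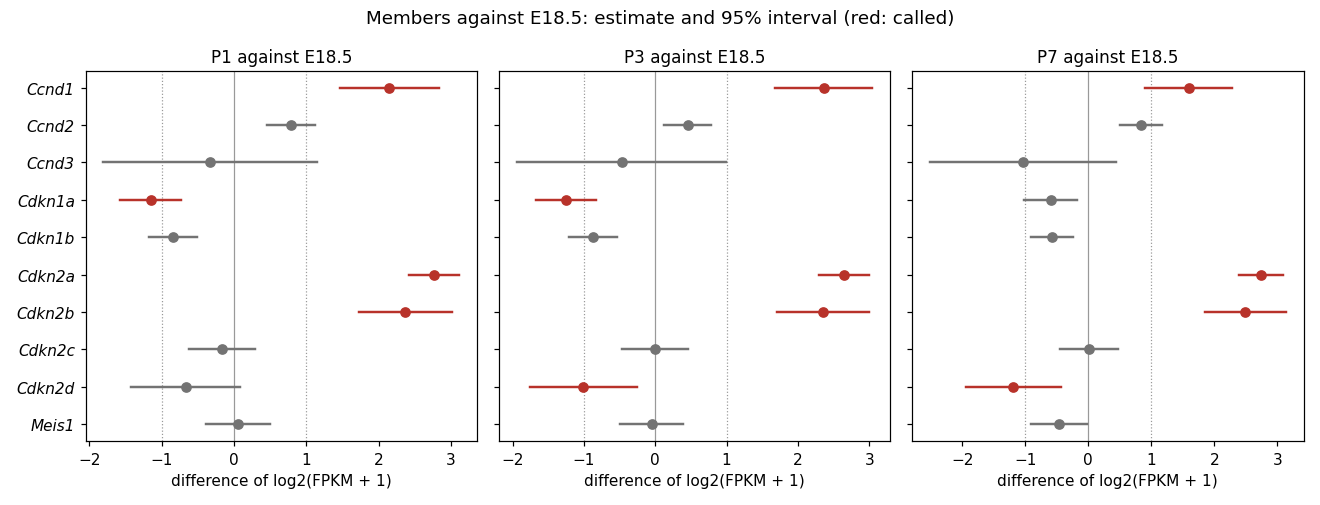
Difference of log2(FPKM + 1) from E18.5 (x axis) for each gene (y axis) at P1, P3 and P7, with points for limma's estimate, bars for its 95% interval, red for genes called and dotted lines at a difference of 1 in either direction. Cdkn2a and Cdkn2b stand at 2.35 or more at each age, and the interval of Ccnd3 spans 0 in all 3 panels.

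Cyclin D1 was the D cyclin called higher after birth by gene FPKM. Ccnd1 stood at 11.7 and 9.07 FPKM at E18.5, with P1 libraries at 69.5 and 34.5, P3 libraries at 53.9 and 60.3 and P7 libraries at 37.5 and 29.1. Both E18.5 libraries were lower than all 6 later ones, and the P1 libraries were the farthest apart of any age. On the log2(FPKM + 1) scale the difference from E18.5 was 2.15 at P1 (SE 0.30, limma adjusted p = 0.00111), 2.36 at P3 (adjusted p = 5e-04) and 1.59 at P7 (adjusted p = 0.00248). Mean Ccnd1 at P7 was 33.3 FPKM ± 5.97 (SD, n = 2) beside 57.1 ± 4.53 at P3, a log2 difference of -0.77 that was not called (adjusted p = 0.215). Exons of Ccnd1 overlap those of LTO1 on the other strand over 818 bases, and since the library kit does not mark strand, reads there cannot be assigned, although LTO1 itself was listed at only 4.72 to 6.20 FPKM.

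Cyclin D2, which like D1 activates Cdk4 and Cdk6, was also higher after birth, by gene FPKM at less than the size set for a call. Ccnd2 measured 26.2 and 21.8 FPKM at E18.5, with P1 libraries at 44.2 and 39.7, P3 libraries at 35.2 and 30.9 and P7 libraries at 41.0 and 46.4. The E18.5 libraries lay below all later ones. The log2 differences from E18.5 were 0.79 (adjusted p = 0.00389), 0.45 (adjusted p = 0.0316) and 0.84 (adjusted p = 0.00157, limma). With TPM in place of FPKM the P1 and P7 differences were 1.03 and 1.12 and were called. A measure added after seeing the data summed the coverage of each transcript's exon that holds the stretch most transcripts share. Each such exon counts over its whole length, so the value is not coverage at those bases alone. On this measure Ccnd2 was called at all 3 ages, with differences of 1.31, 1.33 and 1.63 (limma adjusted p = 0.00794, 0.0056 and 0.00173). As a share of the FPKM of Ccnd1 and Ccnd2 together, Ccnd1 made up 30.9% and 29.4% at E18.5, with P1 libraries at 61.1% and 46.5%, P3 libraries at 60.5% and 66.1% and P7 libraries at 47.8% and 38.5%.

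For cyclin D3, the libraries of one age lay far apart at E18.5, P1 and P3. Ccnd3 was given as 19.2 and 67.1 FPKM at E18.5, with P1 libraries at 45.6 and 17.6, P3 libraries at 16.3 and 40.2 and P7 libraries at 17.6 and 16.6. The high values came from transcripts that were at or near 0 in the partner library. One of the 21 annotated transcripts, ENSMUST00000171031, had 53.1 FPKM in E18.5 library 2 and 1.51 in library 1, and 33.1 in P3 library 2 and 0 in library 1. A second, ENSMUST00000183044, had 29.0 FPKM in P1 library 1 and 0.669 in library 2. Exons holding the stretch that most transcripts share (chr17:47594756-47594949) were covered far more evenly. On the FPKM scale they gave 18.3 and 18.8 at E18.5, with P1 libraries at 13.2 and 13.9, P3 libraries at 14.9 and 14.2 and P7 libraries at 12.3 and 12.9. Both E18.5 libraries lay above the rest. No difference in gene FPKM was called, with adjusted p of 0.704, 0.567 and 0.200 for P1, P3 and P7 against E18.5. Without E18.5 library 1 the P7 difference was -1.91 (adjusted p = 0.0479) and was called. Reads of Bysl, which overlaps Ccnd3 on the other strand and stood at 12.2 to 18.6 FPKM, cannot be told from those of Ccnd3 where their exons coincide.

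**Figure D3:**
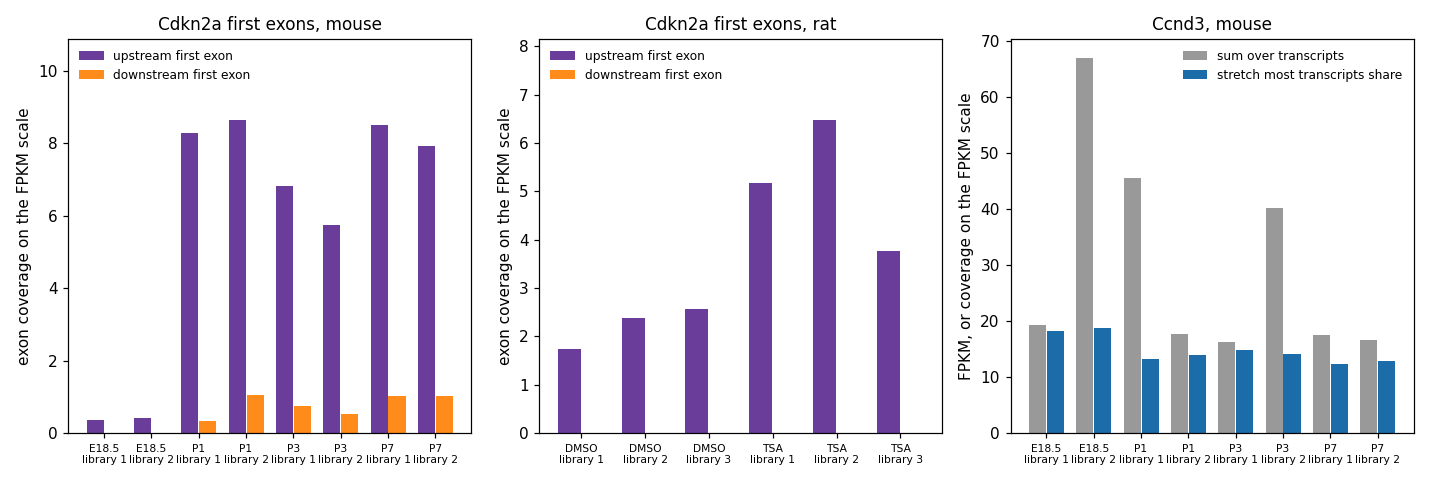
Left and middle, coverage on the FPKM scale (y axis, linear, from 0) of the upstream and downstream first exons of Cdkn2a in each mouse and rat library. Right, Ccnd3 in each mouse library as the sum over transcripts and as summed coverage of exons holding the stretch most transcripts share. The downstream first exon of Cdkn2a stays at or below 1.06 in every library, and the shared stretch of Ccnd3 lies between 12.3 and 18.8 while the sum over transcripts reaches 67.1.

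Cdkn1a, the p53 target that encodes p21, was the most abundant of the 10 genes in every mouse library. It stood at 305 and 236 FPKM at E18.5, with P1 libraries at 132 and 109, P3 libraries at 99.1 and 126 and P7 libraries at 165 and 189.97. Both E18.5 libraries were above all later ones, and both P7 libraries were above those of P1 and P3. The fall from E18.5 was 1.15 on the log2 scale at P1 (SE 0.18, limma adjusted p = 0.00204) and 1.25 at P3 (adjusted p = 0.000972). Without E18.5 library 1 the P1 difference was -0.97, and with TPM it was -0.92, both under the size for a call. At P7 the difference from E18.5 was -0.60 (adjusted p = 0.0239) and was not called, and neither was P7 against P1 at 0.56 (adjusted p = 0.0738) or against P3 at 0.66 (adjusted p = 0.0861).

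Cdkn1b, which encodes p27 and is regulated largely through protein turnover, had a course of the same shape at a lower level. Its libraries gave 20.9 and 21.8 FPKM at E18.5, with P1 libraries at 10.5 and 12.5, P3 libraries at 10.8 and 11.7 and P7 libraries at 13.1 and 15.0. The E18.5 values did not overlap with any later ones. The log2 differences from E18.5 were -0.85, -0.87 and -0.58 (limma adjusted p = 0.00288, 0.00179 and 0.0102), under the size for a call. Scaled by size factors, the P1 and P3 differences were -1.04 and -1.08 and were called.

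Cdkn2a showed the largest difference of the 10. Its gene level was 0.215 and 0.336 FPKM at E18.5, with P1 libraries at 7.39 and 7.92, P3 libraries at 7.11 and 6.88 and P7 libraries at 7.91 and 7.14. The 2 E18.5 values rest on an estimated 5.5 and 10 reads, against 213 to 264 in each later library. The means rose from 0.276 FPKM ± 0.085 to 7.66 ± 0.37 at P1 (SD, n = 2), a ratio of 27.8, and the log2(FPKM + 1) difference was 2.76 (SE 0.15, limma adjusted p = 3.45e-05). After P1 the level held within narrow bounds, with a P7 against P1 difference of -0.02 whose 95% interval ran from -0.37 to 0.32. The gene lies on the minus strand of chromosome 4, and its first exons could be read separately. The upstream first exon, chr4:89294334-89294653, which belongs to the Arf transcript, was covered at 0.354 and 0.421 at E18.5, with P1 libraries at 8.29 and 8.63, P3 libraries at 6.81 and 5.74 and P7 libraries at 8.51 and 7.91 on the FPKM scale. The downstream first exon, chr4:89281986-89282192, which belongs to the p16 transcript, was listed at 0 in both E18.5 libraries and at 0.327 to 1.06 afterwards. In each later library most of the first exon coverage of Cdkn2a therefore lay on the upstream exon, whose promoter is the CpG-rich sequence printed above.

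Cdkn2b, the neighbouring gene that encodes the INK4 protein p15, had a like course. It measured 4.24 and 1.64 FPKM at E18.5, with P1 libraries at 19.1 and 17.4, P3 libraries at 17.6 and 18.4 and P7 libraries at 19.98 and 19.9. The E18.5 libraries differed from each other by more than any later pair but stayed well below them. The log2 difference from E18.5 was 2.37 at P1 (SE 0.28, limma adjusted p = 0.000546), 2.35 at P3 and 2.49 at P7. Without E18.5 library 1, the higher of the pair, these differences were 2.86, 2.85 and 2.99, all called. P7 differed from P1 by 0.12, with a 95% interval from -0.51 to 0.76.

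Cdkn2c and Cdkn2d did not follow the course of Cdkn2a and Cdkn2b. Cdkn2c, which encodes p18, stood at 9.94 and 15.4 FPKM at E18.5 and between 10.8 and 13.5 in all later libraries, inside the E18.5 range. Its differences from E18.5 were -0.17, -0.00 and 0.01, and the 95% interval at P7 ran from -0.45 to 0.46. Cdkn2d, which encodes p19 of the INK4 family and not Arf, was at 21.3 and 33.1 FPKM at E18.5, with P1 libraries at 17.2 and 15.5, P3 libraries at 16.8 and 9.50 and P7 libraries at 14.5 and 8.48. Its E18.5 libraries were above all later ones, and it was called lower at P3 by a log2 difference of -1.01 (SE 0.32, limma adjusted p = 0.0323) and at P7 by -1.19 (adjusted p = 0.0149). Those calls were lost without E18.5 library 2, where the differences were -0.71 and -0.88, and that library held 14.1 FPKM of a transcript that stood at 0.0381 in its partner. They were also lost without P3 library 2 (-0.63) or P7 library 2 (-0.83). Cdkn2a and Cdkn2b together made up 12.5% and 3.92% of the FPKM of the 4 Cdkn2 genes at E18.5 and 45.7% to 55.2% in the 6 later libraries.

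Meis1 was low, and no difference in its gene FPKM was called. It stood at 6.30 and 9.15 FPKM at E18.5, with P1 libraries at 7.68 and 8.18, P3 libraries at 6.69 and 7.96 and P7 libraries at 4.93 and 5.54. The P7 libraries were the lowest and did not overlap with any other age, but the difference from E18.5 was -0.47 (limma adjusted p = 0.0687) and from P1 -0.52 (adjusted p = 0.106), so neither was called. A transcript with 6.23 FPKM in E18.5 library 2 was listed at 0 in library 1. Summed coverage of exons holding the stretch that all 9 transcripts share was 12 and 7.93 at E18.5, with P1 libraries at 15.5 and 16.7, P3 libraries at 15.3 and 14.8 and P7 libraries at 8.38 and 9.39, with E18.5 and P7 below P1 and P3. On that measure the P3 difference from E18.5 was 0.58 (limma adjusted p = 0.07), opposite in sign to the -0.05 from gene FPKM. With limma-voom on estimated reads the P3 difference was 0.41 (adjusted p = 0.0471), under the size for a call. The course of Meis1 thus depended on the measure.

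Among postnatal ages no member was called, at P7 against P1 (all genes: 8.91%) or at P7 against P3 (all genes: 3.55%). The same counts of 0 came from limma-voom on estimated reads. Unadjusted p from limma fell under 0.05 for Cdkn1a and Meis1 in the former (all genes: 4334 of 13979). In the latter it did so for Ccnd1, Ccnd2 and Cdkn1a (all genes: 2589 of 13979). Without P1 library 2, Ccnd1 was called lower at P7 than at P1 by a log2 difference of -1.05 (adjusted p = 0.0285).

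The genes whose FPKM over the 8 mouse libraries was most like that of each called member give its pattern in other words. Pearson's r on log2(FPKM + 1) was taken against 8939 genes with a mean FPKM of at least 5, and all points share the same 8 libraries. For Ccnd1 the nearest were Abhd5 (0.993), Mtmr10 (0.991) and Arhgef5 (0.986), and 159 genes had r above 0.95. For Cdkn1a they were Sik1 (0.979), Apold1 (0.969) and Sesn2 (0.966), and only 11 genes passed 0.95. Cdkn2a was nearest to Pip4k2a (0.997), Rad50 (0.996) and Apol9a (0.996), and Cdkn2b to Gm20431 (0.999), Myo1d (0.996) and Leprotl1 (0.995). With 830 and 877 genes above 0.95, the step between E18.5 and later ages that Cdkn2a and Cdkn2b show was common among the genes compared. For Cdkn2d they were Pcif1 (0.969), Cep63 (0.967) and Psmb6 (0.961), with 9 genes above 0.95.

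The partners and targets of these regulators were counted at P7 against E18.5, where 27.7% of all genes tested were called, 15.4% higher and 12.3% lower. Among 5 kinases and the remaining Cip/Kip inhibitor, Cdk4 rose by 1.61 on the log2 scale, from 68.0 to 210 FPKM, Cdk6 by 1.179 and Cdk1 by 1.07, while Cdkn1c, which encodes p57, fell by 2.09, from 43.3 to 9.58 FPKM. Of 13 pocket proteins and E2F factors, Tfdp1, the dimer partner of E2F proteins, rose by 1.34 and E2f2 fell by 1.11. Rb1 (-0.23), Rbl1 (0.67) and E2f1 (0.39) were not called. None of 5 E, A and B cyclins was called, with Ccne1 at 0.50 and Ccna2 at 0.14. Of 9 S and M phase markers 4 rose, namely Plk1 (1.26), Mcm3 (1.23), Mcm5 (1.07) and Aurkb (1.04), and the proliferation marker Mki67 stood at 0.04. Of 5 genes of p27 turnover Skp2, the F-box protein that targets p27, rose by 1.77. Of p53 and 7 of its targets Zmat3 (1.71) and Bax (1.63) rose and Gadd45a (-1.19) and Sesn2 (-1.07) fell, with Trp53 itself at 0.92 and under the size for a call. Mycn fell by 1.70 as the single call among 7 Myc and FoxO factors. Of 9 tested TALE genes other than Meis1, Pknox2 (2.81) and Meis3 (1.28) rose, Meis2 was at 0.99, and Hoxb13, a partner of Meis1, was listed at 0 in every library. The medians of these lists lay between -0.53 and 0.94, beside 0.14 for all genes. The share of the marker changes given above in these values was not tested.

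Open chromatin at the promoters was read from the peak list of each ATAC-seq library, taking peaks within 2.5 kb of a transcript start. Both libraries of an age held such a peak for 8 of 10 members at E18.5 (all tested genes: 56.7%), 5 at P1 (41.3%), 10 at P3 (87.5%) and 10 at P7 (83.2%). Peak lists differed in length, from 13149 and 14910 peaks at E18.5 and 29281 and 19753 at P1 to 95257 and 52040 at P3 and 49113 and 35898 at P7. Both P1 lists were longer than those of E18.5, although fewer members had a peak in both libraries. With all lists cut to the same length, 7 members had a peak in both libraries at E18.5 (all tested genes: 54.1%), 3 at P1 (31.5%), 5 at P3 (37.3%) and 7 at P7 (45.2%). Peak presence was not compared between ages by a test. Ccnd3, Cdkn1a, Cdkn2c, Cdkn2d and Meis1 had a promoter peak in all 8 libraries, as had 36.6% of tested genes.

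**Figure D4:**
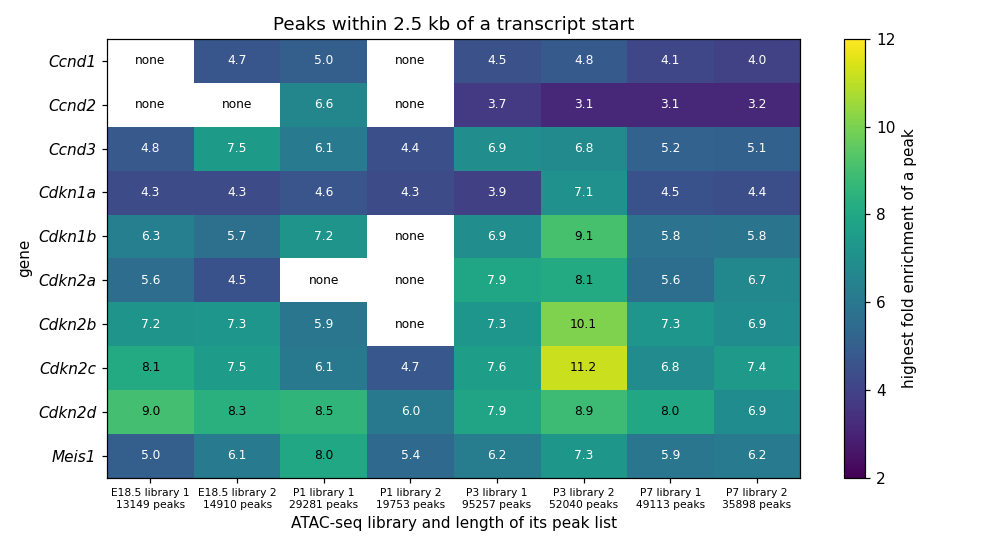
Highest fold enrichment (colour and printed value) of a peak within 2.5 kb of a transcript start for each gene (y axis) in each ATAC-seq library (x axis, with the length of its peak list), where none marks the absence of a peak. Cdkn2d has peaks of 6.04 to 9.02 in all 8 libraries, and the 5 genes without a peak in P1 library 2 are Ccnd1, Ccnd2, Cdkn1b, Cdkn2a and Cdkn2b.

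At the INK4 locus the upstream start of Cdkn2a lay within a peak region, chr4:89294401-89295300, present in 6 libraries and missing from the P1 pair, with a fold enrichment over background of 4.52 to 8.11. The region was thus in the lists at E18.5, where the gene stood at most at 0.336 FPKM, and not in those at P1, where it stood at 7.39 or above. Its peak in E18.5 library 2 was weak, at 4.52 and percentile 9.09 of that list. With lists of equal length, or a fold enrichment of at least 5, only library 1 of the E18.5 pair held a peak for Cdkn2a. At P1 both libraries held a promoter peak for only 41.3% of tested genes, and the contrast was not tested. The downstream start lay in a smaller region, chr4:89282017-89282441, listed in both P3 libraries and P7 library 1. Cdkn2b had a region over its start, chr4:89310391-89311309, in every library but P1 library 2, at 5.91 to 10.1. These regions overlap the printed promoter bases.

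At the other inhibitors, Cdkn1a had a region over its main start, chr17:29093513-29094082, in 7 libraries and a wider one inside the gene, chr17:29094318-29095686, in all 8, at 3.54 to 7.06. Cdkn1b had chr6:134919834-134920863 in 7 libraries, Cdkn2c chr4:109666623-109667241 in 8 and Cdkn2d chr9:21290904-21291759 in 8. The tallest peak of any member was that of Cdkn2c, at 11.2 in a P3 library. Among the cyclins, Ccnd3 had a region at its internal start, chr17:47593197-47593906, in 8 libraries, whereas those at the starts of Ccnd1 (chr7:144939624-144939891) and Ccnd2 (chr6:127150842-127151135) were each in 4. Meis1 had chr11:19018715-19019389 over its start and chr11:19020289-19020635 upstream of it in all 8.

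In rat cells the question was whether inhibition of histone deacetylases moved the same genes. TSA called none of the 9 members present by limma (all genes: 2.13%) or by limma-voom on estimated reads. Unadjusted p from limma was under 0.05 for Cdkn1a, Cdkn2a and Ccnd3 (all genes: 2699 of 13625). The groups did not overlap for these 3 genes (all genes: 27.2%). With 3 libraries against 3, an exact two-sided permutation test cannot give a p under 0.1. The median log2 difference was 0.06 over the members and 0.03 over all 13625 genes tested.

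**Figure D5:**
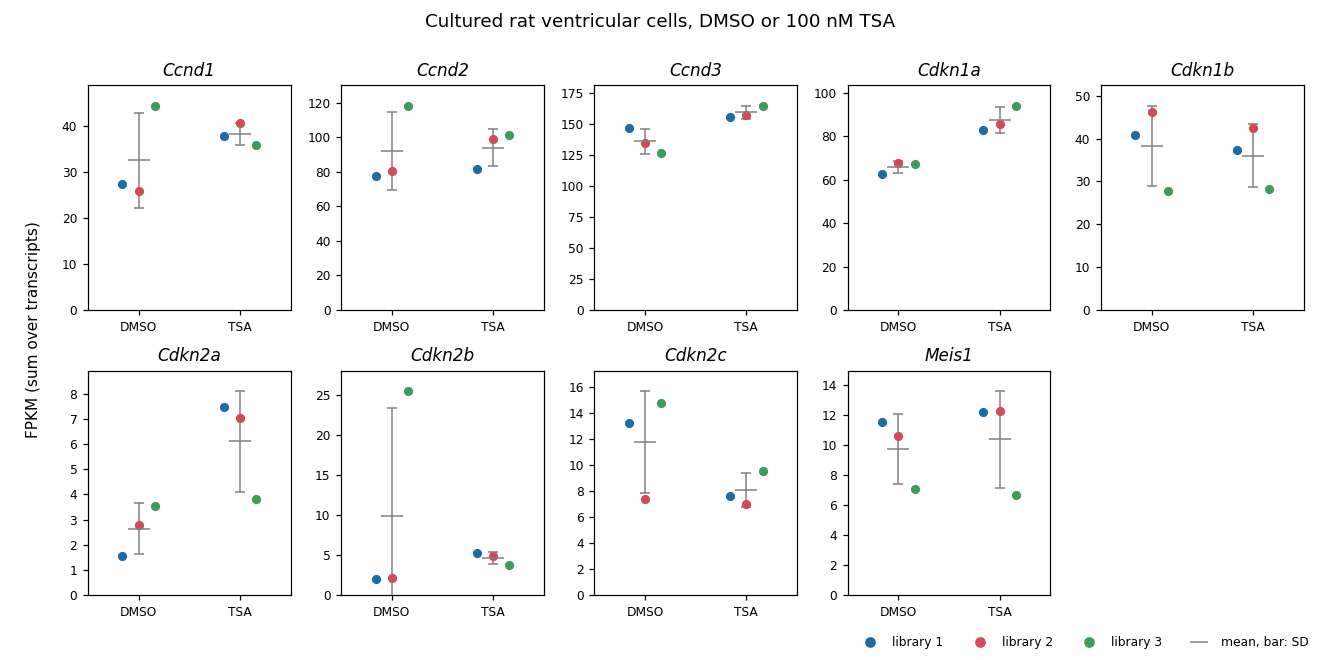
FPKM (y axis, linear, from 0) of 9 genes in cultured rat ventricular cells under DMSO or 100 nM TSA (x axis), with 1 point per library, a grey bar for the mean and whiskers for the SD (n = 3). For Cdkn1a, Cdkn2a and Ccnd3 the lowest TSA library lies above the highest DMSO library, and for Cdkn2b DMSO library 3 stands alone at 25.5.

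Libraries numbered 3 stood apart in the rat cells. The sum of 10 smooth muscle and pericyte genes was 3005 FPKM in DMSO library 3 and 2274 in TSA library 3, against 1050 to 1413 in the other 4. Cardiomyocyte genes summed to 27790 FPKM in TSA library 3 and to 14460 to 19970 in the rest, and fibroblast genes to 3671 and to 5814 to 7059. Macrophage genes, 9 in number, summed to 1028, 1045 and 497 FPKM with DMSO and to 549, 467 and 411 with TSA, and their part in the results was not tested. Differences from fits that leave out these libraries are given for Cdkn2a and Cdkn2b, and not for every other rat result.

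Cdkn1a read 62.7, 67.7 and 67.4 FPKM with DMSO and 82.8, 85.5 and 94.1 with TSA. All TSA libraries were higher, by a log2 difference of 0.40 (SE 0.09, limma adjusted p = 0.065, exact permutation p = 0.1). Cdkn2a read 1.58, 2.81 and 3.55 FPKM with DMSO and 7.46, 7.05 and 3.81 with TSA, a log2 difference of 0.96 (SE 0.29, adjusted p = 0.134, exact permutation p = 0.1). The closest pair was that of the libraries numbered 3, and without them the difference was 1.40 (adjusted p = 0.0124) and was called. First exon coverage lay on the upstream exon (chr5:107840963-107841175 in Rnor_6.0), at 1.75, 2.37 and 2.56 with DMSO and at 5.18, 6.47 and 3.77 with TSA. The downstream first exon was listed at 0 in all 6 libraries. The exon that both transcripts share was covered more, at 2.32, 4.63 and 6.16 with DMSO and at 12.2, 11.1 and 5.93 with TSA. Coverage of that exon does not tell the starts apart. Ccnd3 read 147, 135 and 127 FPKM with DMSO and 156, 158 and 165 with TSA, a log2 difference of 0.23 (adjusted p = 0.237, exact permutation p = 0.1).

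Cdkn2b was decided by a single library. It stood at 2.04, 2.19 and 25.5 FPKM with DMSO and at 5.26, 4.93 and 3.75 with TSA, so that the mean log2 difference was -0.18 (adjusted p = 0.933). Most of the value in DMSO library 3, 23.6 FPKM, was assigned to transcript ENSRNOT00000008898, which was listed at 0 in every other rat library. Summed coverage of the exons holding the stretch its transcripts share was 22.9 there. It was 3.67 and 3.63 in the other DMSO libraries and 9.01, 8.46 and 6.95 with TSA. Each such exon counts over its whole length, so that measure also rests on the assignment to transcripts. Estimated reads were 1707 in DMSO library 3, 297 and 335 in the other DMSO libraries and 632 to 750 with TSA. Without that library the difference was 0.85 (adjusted p = 0.0424), under the size for a call.

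The other rat genes overlapped between treatments. Ccnd1 ranged from 25.9 to 44.5 FPKM with DMSO and from 35.99 to 40.8 with TSA, a log2 difference of 0.27 with a 95% interval from -0.22 to 0.75. Ccnd2 ranged from 77.8 to 118 and from 81.7 to 102 (0.05, -0.38 to 0.48). Cdkn1b was at 40.8, 46.2 and 27.9 with DMSO and 37.4, 42.6 and 28.1 with TSA (-0.08, -0.61 to 0.46), with the libraries numbered 3 lowest in both groups. Cdkn2c ran from 7.38 to 14.8 and from 7.05 to 9.58 (-0.45, -1.05 to 0.15). Meis1 was at 11.5, 10.6 and 7.11 with DMSO and 12.2, 12.3 and 6.67 with TSA, and its interval of -0.57 to 0.70 leaves differences of either sign. None of the pathway lists counted in mouse held a called gene with TSA. The mitotic genes Ccnb1 (-1.38, adjusted p = 0.0537), Plk1 (-1.15, adjusted p = 0.066) and Ccna2 (-1.07, adjusted p = 0.0858) were past the size but not the p, and were named after their values were seen. The p53 target Ccng1 was past the p (0.0401) but not the size, at 0.54.

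Levels of the D cyclins were compared with each other within the FPKM table of each cell source. In rat cells Ccnd3 was highest, at 136 FPKM ± 10.1 with DMSO (SD, n = 3), above Ccnd2 at 92.2 ± 22.8 and Ccnd1 at 32.5 ± 10.4. In mouse at P1 the means were 52.0 ± 24.7 for Ccnd1, 41.9 ± 3.14 for Ccnd2 and 31.6 ± 19.8 for Ccnd3 (SD, n = 2). By gene FPKM these neighbours did not differ beyond their spread. The spread of Ccnd3 came from transcripts nearly absent from P1 library 2. Over exons holding the stretch most transcripts share, the P1 libraries gave 13.2 and 13.9 for Ccnd3, below Ccnd2 at 35.2 and 28.1. On that measure Ccnd1 stood at 62.8 and 29.99 and overlapped with Ccnd2. The genes were not tested against each other on either measure. Ccnd1 made up 24.3% to 31.7% of the FPKM of Ccnd1 and Ccnd2 in the 6 rat libraries. The tables were normalized separately, and species, culture and annotation cannot be told apart between them.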

How the data were processed

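Poly-A RNA-seq and ATAC-seq of mouse and rat ventricular cardiomyocytes were analysed from the deposited files. The authors aligned RNA-seq reads with HISAT2 2.1.0 and ran StringTie (1.3.5 for mouse on mm10 with GENCODE, and another release for rat on Rnor_6.0 with Ensembl annotation), and the deposited files give FPKM, TPM and coverage (mean read depth per base) for each transcript and exon. FPKM is normalized by the authors for length and aligned reads, TPM to a fixed total. For ATAC-seq, the authors ran MACS2 after Bowtie2 alignment and removal of duplicates. The deposited peak lists hold a score, a fold enrichment (a ratio of signal to background) and −log10 p and q values from that run. The authors tested read counts with edgeR. The files used here hold no counts, so limma was used in its place.

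Gene FPKM was the sum over transcript lines. Genes that reached an FPKM of 1 in 2 or more mouse libraries or 3 or more rat libraries (13979 and 13625) were tested on log2(FPKM + 1), which understates changes of low genes, with limma 3.58.1 in R 4.3.3 (lmFit, contrasts.fit, eBayes with a trend, two-sided). All 8 mouse libraries were in 1 fit. P-values were adjusted by Benjamini-Hochberg over all genes tested, and calls needed an adjusted p under 0.05 and a log2 difference above 1 in size, as in the study. Rat members also had an exact permutation test. Exon coverage was divided by the ratio of coverage to FPKM of each library to put it on the FPKM scale. For a shared stretch, the mean coverage of every transcript exon holding it was summed, each exon taken over its whole length. Depth was worked out from the same ratio for reads of 150 bp. Members, pathway lists and tests were chosen with earlier results of these data known. All members were named, and from each pathway list the genes called at P7 against E18.5 or with TSA, up to 3 per direction, a few fixed partners (Cdk4, Cdk6, Rb1, Rbl1, E2f1, Ccne1, Ccna2, Mki67, Cdkn1c, Meis2 and Trp53, with 1 more not reported here), and the 3 genes most like each called member. In rat, same-numbered libraries deviated together from their group means (r = 0.224, 0.194 and 0.346). Libraries 1 and 2 also did so across numbers (0.0904 and 0.167), so these values mainly set library 3 apart. A fit with the number as a block was an alternative, while the main fit and the permutation test did not use the numbers. The procedure was tested on simulated data, where P7 against E18.5 called 78% of 100 genes changed by a log2 of 1.5 and 97% of those changed by 3, among 13979 genes. Alternatives covered the pseudocount, filters, TPM, size factors, estimated reads, the highest transcript, shared exon stretches, the block and each library left out. The shared exon stretches and the fit without both rat libraries numbered 3 were chosen after seeing the data. Near-identical transcripts were found with BLAST+ 2.17.0. For rat, E2f1 and Ccnb2 were not found by symbol.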

Additional observations from a re-analysis of the deposited data

How the results depend on the processing

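Of the counts of called members, those against E18.5 (4, 5 and 4) ranged over 3 to 4, 4 to 5 and 3 to 5 when single libraries were left out, and P7 against P1 over 0 to 1. The count for TSA against DMSO stayed at 0 when any single library was left out. Leaving out replicate 3 of both rat groups gave 1 call, Cdkn2a, and put Cdkn2b at 0.97 (adjusted p = 0.00833). With the replicate number as a block, the counts of called members were 4, 5, 4, 0, 0 and 0 and no call changed. In mouse, same-numbered libraries correlated at -0.0964 to 0.171 in their deviations, so the numbers were not taken as pairs. A fold enrichment of at least 5 left 5 members with a promoter peak in both libraries at E18.5 (all genes: 44.1%), 2 at P1 (23.7%), 7 at P3 (73.5%) and 7 at P7 (49.7%). Lists of equal length left 7, 3, 5 and 7 (all genes: 54.1%, 31.5%, 37.3% and 45.2%), and single P1 libraries gave 5 to 9. The calls of Ccnd1, Cdkn2a and Cdkn2b against E18.5 held under every alternative run. Cdkn2d lost its P3 and P7 calls without the filter (adjusted p = 0.106 and 0.0602), with TPM (-0.80 and -0.97) and over the shared exon stretch (-0.85 and -1.15), and its P7 call with the highest transcript (-0.95). With the highest transcript Cdkn1b was called at P1 (-1.03) and P3 (-1.25), over the shared stretch Ccnd2 was called at 1.31, 1.33 and 1.63, and without E18.5 replicate 1 Ccnd3 was called at P7 (-1.91, adjusted p = 0.0479).

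Log2 differences that changed sign were all uncalled before and after. With TPM they were Cdkn2c at P1 (0.0568) and P3 (0.24), Meis1 at P3 (0.18) and, with TSA, Ccnd2 (-0.0217) and Meis1 (-0.00391). With size factors they were Meis1 at P1 (-0.13) and Cdkn2c at P7 (-0.17), and with estimated reads Meis1 at P3 (0.41), Cdkn2c at P7 (-0.0404) and Cdkn2b with TSA (0.30). With the highest transcript they were Meis1 at P3 (1.03) and P7 (0.21), Cdkn2c at P7 (-0.0669) and Cdkn2d at P7 against P3 (0.25), and over the shared stretch Meis1 at P3 (0.58), Cdkn2a at P7 against P1 (0.0367) and against P3 (-0.0482), and Cdkn2b with TSA (0.18). Leaving out single libraries gave ranges across 0 at P1 for Ccnd3 (-1.21 to 0.54), Cdkn2c (-0.46 to 0.13) and Meis1 (-0.19 to 0.29), at P3 for Ccnd3 (-1.35 to 0.40), Cdkn2c (-0.30 to 0.29) and Meis1 (-0.29 to 0.185), and at P7 for Cdkn2c (-0.29 to 0.30). The same held at P7 against P1 for Ccnd2 (-0.0301 to 0.145) and Cdkn2a (-0.0887 to 0.0419), at P7 against P3 for Ccnd3 (-1.19 to 0.0594), Cdkn2c (-0.0953 to 0.116) and Cdkn2d (-0.56 to 0.21), and with TSA for Ccnd2 (-0.0581 to 0.242), Cdkn1b (-0.28 to 0.0881), Cdkn2b (-0.71 to 0.85) and Meis1 (-0.13 to 0.325). The cause of these shifts was not tested.

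Over all genes, the median log2 difference at P7 against E18.5 was 0.14 with FPKM, 0.40 with TPM and -0.01 with size factors, and 55.7%, 68.1% and 45.5% of calls were higher. The 496 calls at P7 against P3 became 15 without the filter and 23 or 26 without a P3 library, and the 290 calls with TSA ranged from 33 to 458 when a library was left out.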
